A study of Mus musculus with 21 samples.

Results

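The 449 genes described here lie on mouse chromosome 6. They are the genes that GENCODE M21 places on this chromosome of the GRCm38 assembly and that averaged at least 5 CPM (counts scaled by the total of the library) in the wild type libraries, out of 3120 chromosome 6 genes in the gene tables and out of 9022 autosomal genes that passed the same threshold. For each gene and library the log2 of CPM plus 0.5 was set against the wild type mean and centred on the median of all autosomal genes of that library, so that 0 stands for the typical autosomal gene. The members comprised 406 protein coding genes. Of all members, 22 were T cell receptor or immunoglobulin segments, 17 had no gene name, and the other 410 are called named genes below. The chromosome and the libraries compared were picked because their values differed, so the difference between the sets of transplantation libraries is described here and is not tested.

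RNA was sequenced from spleen T cells in 21 libraries. Wild type mice (WT, n = 5) and Tet2-/-Tet3flx/flxCD4cre mice (DKO, n = 5) gave cells in the gate CD4+CD25- TCRb+ without staining by the CD1d tetramer. DKO CD4 cells marked by CD45.2 were placed in CD45.1+ recipients, and CD45.2+ TCRb+ cells were sorted again after a first round of transplantation (TX1, n = 4) or a second one (TX2, n = 7). All transplanted cells carry the DKO genotype, in which Tet2 is missing from every cell of the animal and Tet3 is deleted by a Cre recombinase driven from Cd4 regulatory sequence, which is active from the thymus on and therefore also in the CD8 lineage. Transplanted WT cells were not analysed here, so transplantation and genotype cannot be told apart in TX1 and TX2. The labels name no ages, and they call DKO replicates 4 and 5 young. WT libraries were all from males, while DKO replicate 2, TX1 replicate 3 and TX2 replicates 5 to 7 were from females. In the series the replicates of a group are not stated to be separate donors of cells, and p-values then measure only the spread between these libraries.

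In mammals an autosome is normally present as a pair, one copy from each parent, and the RNA of a gene tends to follow the number of copies that carry it. The median over all genes of a chromosome is for this reason often used as a rough reading of its dosage in bulk RNA, although a median cannot separate dosage from regulation that touches many genes of that chromosome. Mouse chromosome 6 carries the T cell receptor beta locus (Trb), the immunoglobulin kappa locus, the GIMAP family of lymphocyte GTPases, the natural killer gene complex, the neighbours Cd4 and Lag3, and Tet3 itself. The title of the series names genomic instability after loss of both enzymes, and TET enzymes oxidise 5-methylcytosine on the way to its removal from DNA.

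Because the beta chain is encoded on chromosome 6, its rearranged sequences are a record of this chromosome in each population of cells, and they are shown because some transplantation libraries share them. The deposited clonotype tables gave 5 different leading sequences over the 11 transplantation libraries. They are written from the conserved cysteine to the conserved phenylalanine, with the bases between the V and the J segment in capitals.
TX2 replicates 1 to 4: tgtgccagcagtgatacagaagtcttcttt
TX1 replicate 3 and TX2 replicates 5 to 7: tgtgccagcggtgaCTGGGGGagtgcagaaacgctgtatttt
TX1 replicate 1: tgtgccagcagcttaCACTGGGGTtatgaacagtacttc
TX1 replicate 2: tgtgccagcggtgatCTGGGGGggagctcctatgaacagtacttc
TX1 replicate 4: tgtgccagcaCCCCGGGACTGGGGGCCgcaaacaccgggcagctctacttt
The sequence of TX2 replicates 1 to 4 joins TRBV13-3 to TRBJ1-1 with no added base, and it held 99.74 to 99.97% of 5820 to 7569 beta chain reads per library. In the other 7 transplantation libraries the leading sequence held 85.57 to 94.14% of 3763 to 9440 reads, and a second beta chain sequence held 5.83 to 14.1% (531 to 791 reads). No such second sequence stood out in TX2 replicates 1 to 4, where the next entry in the tables had 1 to 5 reads. TX1 replicate 3 and TX2 replicates 5 to 7 also shared their second sequence, which is out of frame and joins TRBV4 to TRBJ2-5:
second sequence of TX1 replicate 3 and TX2 replicates 5 to 7: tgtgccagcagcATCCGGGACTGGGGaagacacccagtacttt
Whether libraries that share a leading sequence hold cells of a single clone was not tested, and the alpha chain was not examined. The spread within TX2 replicates 1 to 4, and within TX2 replicates 5 to 7, is a spread over libraries with a shared leading sequence. The 7 other transplantation libraries hold 4 leading sequences against 1 in TX2 replicates 1 to 4, so n = 7 below counts libraries and not leading sequences.

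Reads assigned to genes numbered 26918548 to 30730877 per library. The gene counts could not be told apart by strand, since the larger strand column held 50.5 to 51.2% of stranded reads, so antisense and overlapping genes on chromosome 6 share reads. WT replicate 5 stood apart from the other WT libraries: the medians of its other autosomes ran from -0.13 to 0.20. In DKO replicate 2 a single beta chain sequence held 77.8% of reads, against 6.43 to 13.6% for the leading one in DKO replicates 1, 3 and 4. In WT, DKO and TX1 multimapping reads made up 6.58 to 7.80% in replicates 1 to 3 and 8.04 to 10.02% in later replicates, and TX2 libraries ran from 7.68 to 9.60%, across both ranges. The summed level of 9 T cell markers was 3804 to 10210 CPM over all libraries. It was 5880 to 6974 CPM in TX2 replicates 1 to 4, 4456 to 4820 CPM in TX2 replicates 5 to 7 and 3804 to 7462 CPM in TX1. Among these markers, Cd4 was near absent from most transplantation libraries. The summed level of 5 B cell markers was 266 to 470 CPM in TX2 replicates 5 to 7 and 1.77 to 2.63 CPM in TX2 replicates 1 to 4, and 221 to 375 CPM of the former was Igkc, which itself lies on chromosome 6. Macrophage, neutrophil and erythroid markers were also above TX2 replicates 1 to 4 there, with 14.6 to 535 CPM of 2 haemoglobin genes against 0.266 to 8.70 CPM. The sum of the 2 natural killer cell markers overlapped, at 20.1 to 144 CPM against 69.5 to 141 CPM. Most of that sum was Klrb1c, which itself lies on chromosome 6. The other marker, Ncr1, did not overlap, at 0.52 to 0.95 CPM in TX2 replicates 5 to 7 against 6.28 to 14.05 CPM in TX2 replicates 1 to 4. The part of these cell types in the chromosome 6 values was not tested. In bulk RNA, fewer cells of a type and less RNA per cell cannot be told apart.

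Chromosome 6 genes as a group were higher than the typical autosomal gene in TX2 replicates 1 to 4 and lower in the other 7 transplantation libraries. The median log2 ratio of the 449 genes was 0.23, 0.23, 0.38 and 0.41 in TX2 replicates 1 to 4. It was -0.15, -0.21, -0.22 and -0.15 in TX1 replicates 1 to 4, and -0.23 in each of TX2 replicates 5 to 7. TX2 replicates 1 to 4 therefore lay above 0 and above every other transplantation library, and those 7 all lay below 0. As set means these were 0.31 ± 0.09 (SD, n = 4), a 1.24-fold level, against -0.18 ± 0.04 (SD, n = 4) in TX1 and -0.23 ± 0.00 (SD, n = 3) in TX2 replicates 5 to 7. In WT the medians were -0.02, -0.00, -0.03, 0.00 and 0.05, and in DKO -0.03, -0.08, -0.02, 0.00 and -0.01. DKO thus sat near 0, while WT is the reference of these ratios and lies near 0 by construction.

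The 7 other libraries were less low without the receptor segments and the genes that have no name. Over the 410 named genes alone, the mean of the library medians was -0.14 ± 0.03 (SD, n = 7) in these libraries, a 0.905-fold level, compared with -0.20 ± 0.04 over all members. Over the same 410 genes TX2 replicates 1 to 4 stood at 0.35 ± 0.09 (SD, n = 4), a 1.28-fold level. Among the 19 autosomes, chromosome 6 over all 449 members had the lowest median in each of the 7 other transplantation libraries, at rank 19 from the top. Over its named genes alone it was not the lowest in TX1 replicates 2, 3 and 4 and TX2 replicate 7. It stood there at -0.1574, -0.1725, -0.1015 and -0.1299. The lowest other autosome, over all its genes, stood at -0.1838, -0.1761, -0.111 and -0.1464. Over all members, chromosome 6 ranked 3, 2, 2 and 1 from the top in TX2 replicates 1 to 4. Chromosome 17 reached 0.39, 0.38, 0.40 and 0.35 there, and chromosome 2 was also above chromosome 6 in TX2 replicate 1, at 0.2339 against 0.2314. Chromosome 17 was high in 10 of the 11 transplantation libraries on both sides of the comparison, from 0.35 to 0.52, and at 0.13 in TX1 replicate 1.

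**Figure D1:**
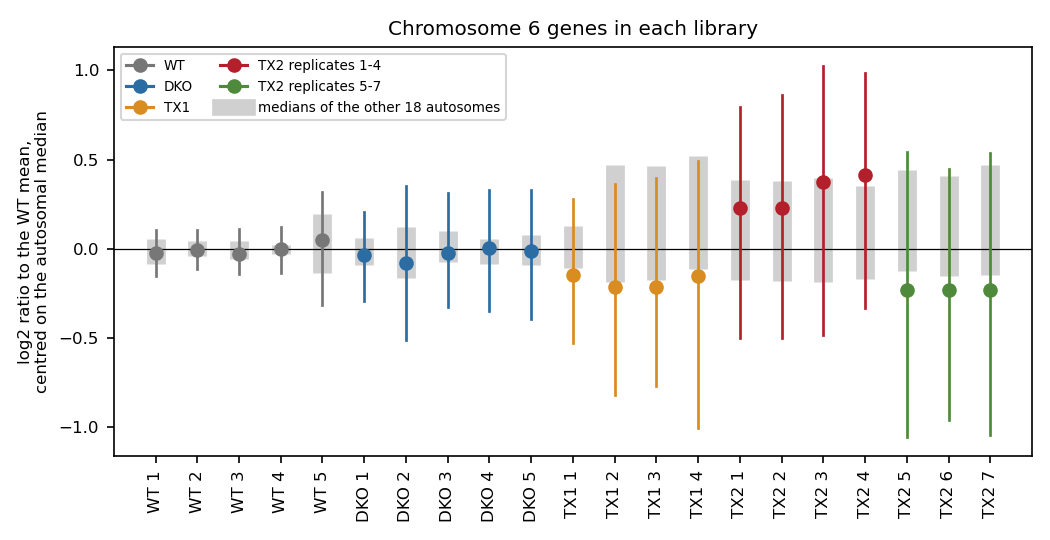
Points give the median log2 ratio to the WT mean over the 449 chromosome 6 genes in each library, thin lines the quartiles over these genes, and grey bars the range of the medians of the other 18 autosomes. TX2 replicates 1 to 4 sit between 0.23 and 0.41, and the other 7 transplantation libraries between -0.23 and -0.15, below all other autosomes of the same library.

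Gene by gene, the mean log2 ratio of TX2 replicates 1 to 4 minus that of the 7 other transplantation libraries had a median of 0.43 over the 449 genes, which is 1.35-fold. It was above 0 in 371 genes, or 82.6%. In 165 genes, or 36.7%, every one of TX2 replicates 1 to 4 lay above every other transplantation library; over all 9022 autosomal genes the corresponding share was 8.17%. In 11 genes, or 2.45%, every one of them lay below, against 8.37% over all autosomal genes. These shares restate the choice of the chromosome and carry no test. Leaving out TX1 replicate 1, which stood apart for several genes below, gave 201 genes without overlap above, or 44.8%, beside 11.8% of all autosomal genes under the same removal. Leaving out any other library gave 166 to 181 genes. Over the named genes the difference was above 0 in 348 of 410 and had a median of 0.44.

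No other autosome moved as far between the same libraries. The next largest medians were -0.27 on chromosome 15 (378 genes, 19.8% above 0) and -0.13 on chromosome 16, both in the opposite direction. The remaining autosomes ran from -0.08 on chromosome 18 to 0.03 on chromosome 3. The lower quartile of the chromosome 6 genes, 0.11, lay above all the medians of the other autosomes.

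**Figure D2:**
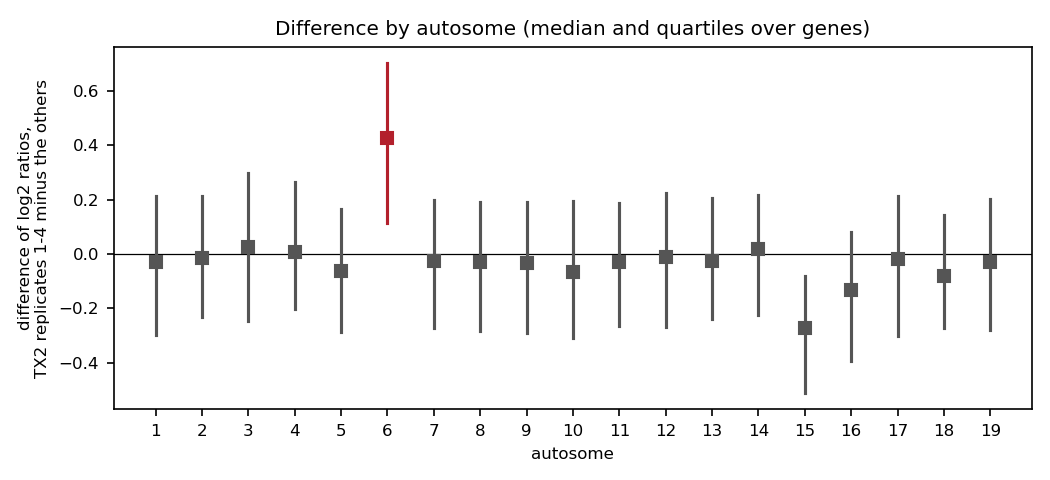
Squares give, for each autosome, the median over its genes of the log2 ratio in TX2 replicates 1 to 4 minus that in the 7 other transplantation libraries, and lines give the quartiles over genes. Chromosome 6 stands at 0.43, chromosome 15 at -0.27, and the other autosomes between -0.13 and 0.03.

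The difference ran along the whole chromosome. Cut into 15 windows of 10 Mb, from the first member at base 3333194 to the last at 149335663, the named genes had a median difference above 0 in all 15 windows, from 0.31 in window 11 to 0.82 in window 7. Window 7 held only 5 named genes and window 11 held 11. In the windows with the most named genes the values were 0.47 in window 9 (59 named genes), 0.44 in window 13 (60 named genes) and 0.52 in window 12 (43 named genes). Next in number were window 5 (36 named genes) at 0.32, window 4 (34 named genes) at 0.50 and window 15 (30 named genes) at 0.33. In 10 of the 15 windows every one of TX2 replicates 1 to 4 lay above every other transplantation library. Window 7 was the highest in TX1 and in both sets of TX2 libraries. Windows 5 and 11 were the lowest in TX2 replicates 1 to 4 and in TX1. In TX2 replicates 5 to 7 the lowest were windows 5 and 14, followed by window 11 at -0.58. Window 14 stood at -0.72 in TX2 replicates 5 to 7 against 0.39 in TX2 replicates 1 to 4.

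**Figure D3:**
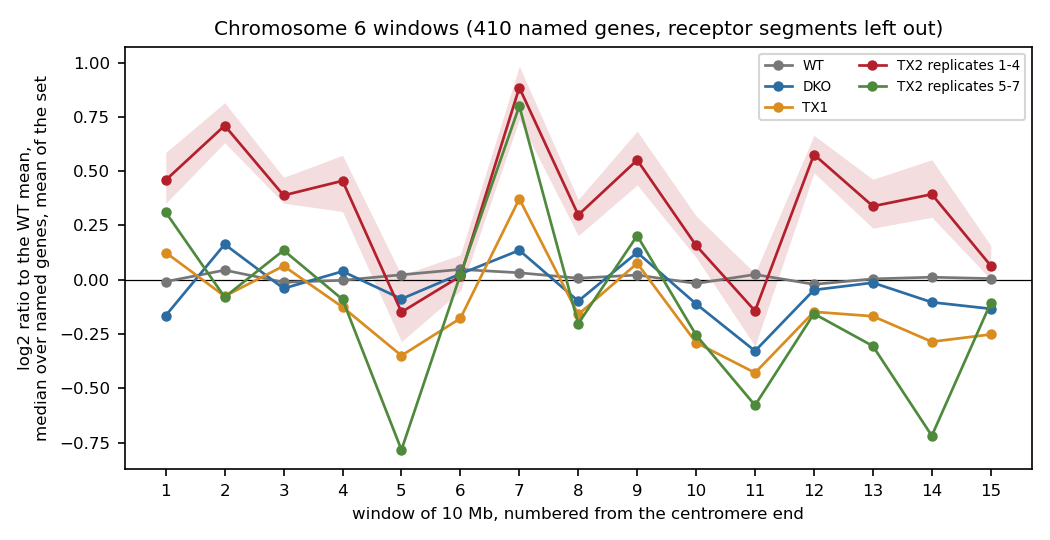
Lines give the median log2 ratio of the named genes in each window of 10 Mb along chromosome 6 as the mean of each set of libraries, and the shaded band gives the lowest and highest of TX2 replicates 1 to 4. The line of TX2 replicates 1 to 4 lies above those of TX1 and TX2 replicates 5 to 7 in all windows except window 6, where it and TX2 replicates 5 to 7 are both at 0.02.

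Window 5, from 40 to 50 Mb, was the exception in level. It holds the Trb locus and the GIMAP genes, with 60 members of which 21 are receptor segments. The median of its 36 named genes was -0.15 in TX2 replicates 1 to 4, -0.35 in TX1 and -0.78 in TX2 replicates 5 to 7. Over all 60 members, with the receptor segments and 3 genes without a name, these became -0.40, -0.68 and -1.52. Window 11, from 100 to 110 Mb, was the only other window in which TX2 replicates 1 to 4 averaged below 0 over named genes, at -0.14. DKO was low in the same window, at -0.33.

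The difference was present on both sides of the middle of the chromosome. Divided at base 74791828, the middle of the annotated chromosome, the 165 named genes of the proximal side had a median difference of 0.48 and the 245 of the distal side one of 0.43. Taken instead as a gap between library medians over all members, distal minus proximal, the sets differed by 0.06 in the opposite direction, so no side was higher by both measures. Within TX2 replicates 1 to 4, replicates 3 and 4 were higher than replicates 1 and 2. This gap had a median of 0.16 over the named genes, was above 0 in 310 of 410 genes, and lay between 0.08 and 0.24 in all 15 windows. Chromosome 2 differed by -0.19 between the same pairs of libraries, and the other 17 autosomes by -0.06 to 0.02. These 4 libraries were thus not at a single level, and the labels do not tell these pairs apart.

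The difference depended little on the kind of gene. When the named genes were parted into 3 equal classes by WT level, the medians were 0.43 in the low, 0.49 in the middle and 0.39 in the high class. By exon length they were 0.51 in the short, 0.46 in the middle and 0.36 in the long genes. By the number of CpG dinucleotides in the promoter, known for 342 genes with an entry in the RefSeq promoter table, they were 0.49, 0.47 and 0.42. Spearman's rank correlation across genes was 0.01 for level, -0.13 for length (410 genes each) and -0.06 for CpG number. Genes share libraries and are not independent replicates, so these values are descriptions. The named genes just inside the threshold on level were Gsdme and Pyurf at 5.12 CPM and Zc3hav1l at 5.12 CPM in the WT mean. Retsat at 4.66 CPM, Umad1 at 4.905 CPM and Grcc10 at 4.99 CPM were just outside.

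Single genes departed from the common shift by far more than its size, in both directions. The named genes farthest above were Lag3 (3.19), Capg (2.36), Gstk1 (2.31), Ccnd2 (2.11), Zfp422 (2.10) and Cand2 (1.82), each value being the difference of log2 ratios. Those farthest below were Zfp783 (-5.13), Gprin3 (-3.01), St8sia1 (-2.96), Osbpl3 (-2.68), Bhlhe40 (-2.56) and Abcg2 (-2.44). These 12 were chosen by the size of that difference, and their values are given as descriptions.

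**Figure D4:**
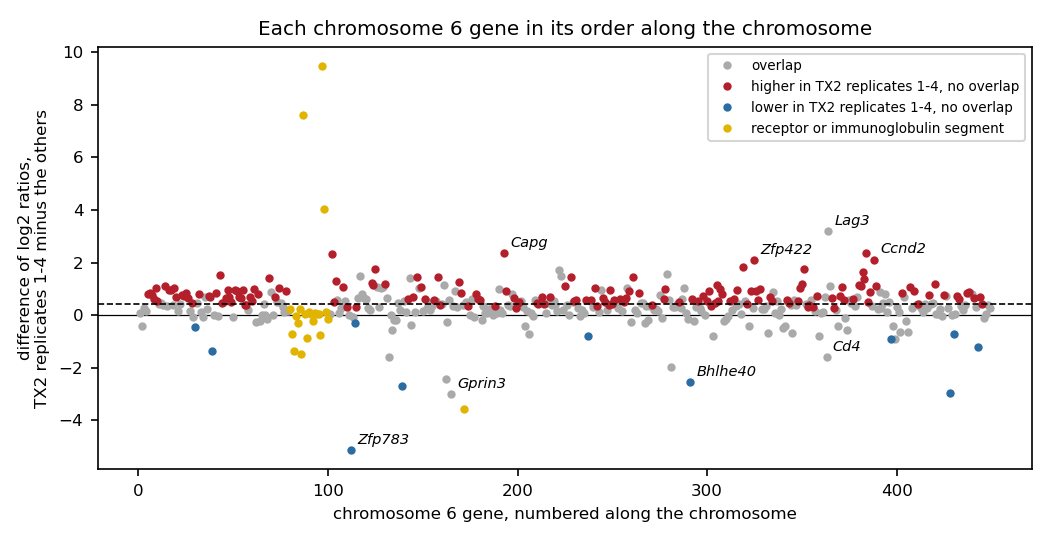
Each point is a member in its order along chromosome 6, and the vertical axis is the log2 ratio in TX2 replicates 1 to 4 minus that in the 7 other transplantation libraries. Red points, 156 of them among the named genes, lie above the other libraries without overlap and blue points below them, the dashed line marks the median of 0.43, and receptor segments are yellow.

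Ccnd2 encodes cyclin D2, which drives entry into the cell cycle and is the D-type cyclin that lymphocytes use early after activation. It was measured at 1319, 1433, 1276 and 1337 CPM in TX2 replicates 1 to 4. TX1 had 560, 431, 328 and 401 CPM, and TX2 replicates 5 to 7 had 209, 301 and 163 CPM. No library of the other sets came near those 4, and WT (436 to 505 CPM) and DKO (249 to 366 CPM) were also well below them. The difference was 2.11, or 4.32-fold, and stayed between 1.95 and 2.24 when any transplantation library was left out. The gene lies at chr6:127125162-127152193 on the minus strand, in window 13.

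Capg, which encodes a capping protein of actin filaments, had 383, 372, 618 and 533 CPM in TX2 replicates 1 to 4. In TX1 it had 230, 227, 127 and 78.2 CPM, and in TX2 replicates 5 to 7 it had 27.8, 105 and 37.4 CPM. The sets did not overlap, and the 2 sets of TX2 libraries lay 3.28 apart on the log2 scale. WT libraries had 23.8 to 56.7 CPM.
Zfp783, which the annotation lists as a transcribed unprocessed pseudogene, went the other way and was nearly silent in TX2 replicates 1 to 4, with 0, 0, 0.10 and 0.20 CPM. TX1 had 28.8, 24.4, 20.4 and 30.2 CPM and TX2 replicates 5 to 7 had 13.5, 16.7 and 12.8 CPM, while WT had 8.75 to 14.4 CPM. Only in TX2 replicates 1 to 4 were its reads close to none. On the scale of log2(CPM + 0.5) the level in the other libraries was 35.1-fold higher, which understates the change of a gene near 0. The members on either side of it, Zfp212 and Zfp956, had differences of -0.01 and -0.06 with overlap.

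The promoters of Capg and Zfp783, the members farthest above and below that have an entry in the RefSeq table (GRCm38.p6), are shown because the series concerns enzymes that act on methylated CpG. Each runs from 250 bases before to 50 bases after the start of the gene on the plus strand, with CpG in capitals.
Capg, chr6:72549397-72549696: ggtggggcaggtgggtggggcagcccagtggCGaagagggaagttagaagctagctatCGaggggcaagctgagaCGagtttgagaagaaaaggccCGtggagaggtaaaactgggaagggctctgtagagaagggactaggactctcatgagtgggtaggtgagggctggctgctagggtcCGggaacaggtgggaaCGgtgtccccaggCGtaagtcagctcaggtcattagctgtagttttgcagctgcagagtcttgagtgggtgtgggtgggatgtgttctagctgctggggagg
Zfp783, chr6:47942925-47943224: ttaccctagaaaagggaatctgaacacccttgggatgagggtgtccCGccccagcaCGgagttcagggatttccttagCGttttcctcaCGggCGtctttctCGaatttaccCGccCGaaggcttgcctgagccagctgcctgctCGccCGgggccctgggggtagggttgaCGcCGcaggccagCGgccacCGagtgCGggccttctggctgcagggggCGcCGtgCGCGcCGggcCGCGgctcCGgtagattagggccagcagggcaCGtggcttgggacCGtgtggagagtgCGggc
The first window holds 7 CpG and the second 26. Methylation was not measured in these files, and nothing about it follows from the letters.

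The lymphocyte surface genes of the chromosome were split. Lag3, an inhibitory receptor of activated T cells that binds MHC class II, had 102, 109, 139 and 127 CPM in TX2 replicates 1 to 4. It had 2.69, 0.88 and 3.46 CPM in TX2 replicates 5 to 7, and 1099, 32.7, 12.2 and 8.68 CPM in TX1. TX1 replicate 1 was thus above all other transplanted libraries and made the sets overlap. Without that library the difference grew from 3.19 to 4.25. Lag3 was at 7.73 to 27.3 CPM in WT and at 240 to 993 CPM in DKO.
Cd4, the coreceptor that lies next to Lag3 at chr6:124864692-124888221, was close to absent from most transplanted cells although they descend from cells sorted as CD4+. It had 2.20, 1.82, 1.01 and 0.62 CPM in TX2 replicates 1 to 4, and 1.60, 2.32 and 1.44 CPM in TX2 replicates 5 to 7. TX1 replicate 1 kept 1051 CPM, while TX1 replicates 2, 3 and 4 had 0.35, 28.0 and 0.13 CPM. WT had 1440 to 1503 CPM and DKO 1111 to 1734 CPM. The low level was therefore common to both sets of TX2 libraries, and only TX1 replicate 1 came near the range of the untransplanted groups. Cd8a, which marks the other lineage, had at most 0.261 CPM in any transplanted library.

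Of the 14 listed T cell surface and cytokine receptor genes, 10 were members, and their median difference was 0.51, beside 0.43 over all members. Of these 10, 6 were above 0 and 4 lay above without overlap, beside 82.6% and 36.7% of all members. Cd27, a costimulatory receptor of the TNF receptor family, had 418, 441, 525 and 485 CPM in TX2 replicates 1 to 4 and 184 to 237 CPM in all other transplantation libraries. Tnfrsf1a, the type 1 receptor of tumour necrosis factor, had 28.2 to 39.9 CPM against 5.78 to 20.6 CPM. The tetraspanin gene Cd9 (162 to 193 CPM against 32.4 to 129 CPM) and Ptpn6, which encodes the inhibitory phosphatase SHP-1 (384 to 463 CPM against 160 to 362 CPM), were likewise separate. Cd4, Cd8b1, Il17ra and Clec2d had differences below 0. Cd8b1 had at most 0.163 CPM in any transplantation library, so the sign of its difference carries no information.

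All 8 GIMAP genes, which encode lymphocyte GTPases, had differences above 0, with a median of 0.85. Over all members 82.6% were above 0 and the median was 0.43. The family is a tight cluster in window 5. Gimap4, at 1033, 1085, 1235 and 1154 CPM in TX2 replicates 1 to 4, lay above TX1 (534 to 637 CPM) and above TX2 replicates 5 to 7 (307 to 509 CPM). Gimap6 and Gimap7 were also separate, with differences of 1.14 and 1.75. These 3 of 8 genes without overlap stand beside 36.7% of all members. Against TX2 replicates 5 to 7 alone the differences ran from 0.30 for Gimap9 to 2.24 for Gimap7, and against TX1 alone from -0.33 for Gimap8 to 1.37 for Gimap7.

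Only 2 of the 16 listed genes of the natural killer complex passed the WT threshold. Clec2i, a C-type lectin gene, was lower in TX2 replicates 1 to 4 (19.8 to 23.0 CPM) than in the others (25.2 to 75.9 CPM), and Klrd1, which encodes CD94, ranged from 0.21 to 101 CPM with overlap. Among those below the threshold, Klrb1c and Klrb1a were seen in all transplanted libraries. Klrb1c, the gene of the NK1.1 antigen, had 133, 112, 58.3 and 55.5 CPM in TX2 replicates 1 to 4 and 19.2 to 322 CPM in the others, against 1.92 to 4.99 CPM in WT.

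The 14 members among 15 cell cycle and genome maintenance genes all had differences above 0, with a median of 0.48 and 5 without overlap. Here and in the lists above and below, the chromosome as a whole has 82.6% above 0 and 36.7% without overlap, and nothing particular to a list is read from its count. Mcm2, a subunit of the replicative helicase, had 551 to 631 CPM against 224 to 526 CPM. Apart from Ccnd2, the others without overlap were Mbd4, a DNA glycosylase, Gadd45a, a stress response gene, and Ppp4r2, a phosphatase subunit, with differences of 0.43, 0.82 and 0.50. Cdkn1b, the inhibitor of cyclin-dependent kinases p27, overlapped at 77.1 to 87.2 CPM against 40.1 to 158 CPM.

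Among growth signalling and transcription regulators, 9 of 11 members had differences above 0 with a median of 0.54. Mlf2 and Arhgdib were separate, by 0.66 and 0.78. Bhlhe40, a transcription factor induced by T cell activation, was lower: 3.26, 2.73, 2.16 and 2.66 CPM against 3.82 to 627 CPM. The upper end was TX1 replicate 1, and without it the difference shrank from -2.56 to -1.73 while the sets stayed apart.

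The 9 members of the chromatin list had a median difference of 0.26, all above 0 and 4 without overlap. Phc1, a Polycomb repressive complex 1 subunit, had 53.6 to 67.4 CPM against 23.4 to 36.9 CPM, and Chd4, the helicase of the NuRD complex, had 857 to 1048 CPM against 592 to 748 CPM. Cbx3 and Emg1, a ribosome biogenesis gene that the list also held, were the other members without overlap. Ezh2, the methyltransferase of Polycomb repressive complex 2, overlapped and was higher in TX2 replicates 5 to 7 (145 to 186 CPM) than in TX2 replicates 1 to 4 (122 to 144 CPM).
Of 4 glycolysis members, Slc2a3, the glucose transporter GLUT3, was separate with 212, 210, 243 and 278 CPM against 45.1 to 103 CPM. Gapdh, Tpi1 and Ldhb overlapped, with differences of 0.57, 0.10 and 0.74. All 15 RNA processing and translation genes had differences above 0, with a median of 0.36 and 6 without overlap, among them Pcbp1 (0.58), the oligosaccharyltransferase subunit gene Rpn1 (0.56) and the mitochondrial ribosomal protein genes Mrpl51 (0.63) and Mrpl19 (0.47). The members among the T cell surface and cytokine receptor genes were spread from -1.61 (Cd4) to 3.19 (Lag3). The Cd4 value rests largely on TX1 replicate 1, which had 1051 CPM where the other transplantation libraries had at most 28.0 CPM.

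**Figure D5:**
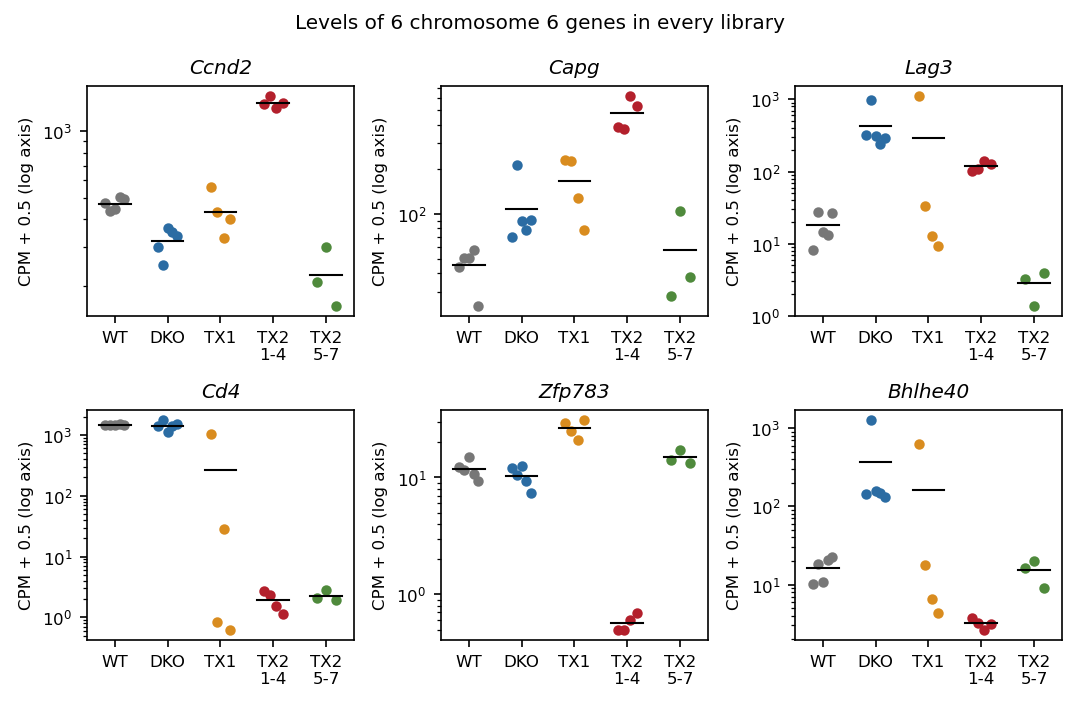
Points give CPM plus 0.5 on a log axis for 6 chromosome 6 genes in every library, and black lines the arithmetic mean of each set. Ccnd2 and Capg are highest and Zfp783 and Bhlhe40 lowest in TX2 replicates 1 to 4, and Cd4 and Lag3 are high in 1 TX1 library, which has 1051 and 1099 CPM.

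The receptor segments differed between libraries by far more than the other members. Trbc1, the constant gene joined to J1 segments, had 1468, 1480, 2553 and 2141 CPM in TX2 replicates 1 to 4 and 874 CPM in TX1 replicate 1. The other 6 transplantation libraries had 0.105 to 3.03 CPM, and all of these carry a leading sequence with a J2 segment. Trbc2 was measured at 683 to 1166 CPM in all 11. TX1 replicate 1 had Trbc1 reads although both of its abundant sequences end in a J2 segment. Trbv13-3 had 201 to 321 CPM in TX2 replicates 1 to 4 and 382 CPM in TX1 replicate 4, the 2 leading sequences that use it, and 0 to 0.0326 CPM in the other 6. Over the 17 Trbv members the median log2 ratio was -4.92 to -6.19 in the transplantation libraries. It was -2.83 in DKO replicate 2 and -0.27 to 0.06 in the other DKO libraries.

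The comparison of DKO with WT was not used to pick the chromosome and is tested. Tet3, the targeted gene on chromosome 6 (chr6:83362373-83459084), was measured at 201, 186, 218, 169 and 193 CPM in WT and at 106, 86.3, 102, 95.3 and 88.6 CPM in DKO. Its groups did not overlap, and it fell by 1.05 ± 0.09 (SE) on the log2 scale (edgeR quasi-likelihood test, adjusted p = 1.9e-05). Gene counts do not show which exons the remaining reads cover. Tet3 stayed low after transplantation, at 57.7 to 94.8 CPM in TX1 and TX2, with a difference between the 2 sets of transplantation libraries of 0.07. Every DKO library lay below every WT library for this gene.

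For the chromosome as a whole, the difference between DKO and WT did not pass the test. The mean of the library medians was -0.03 ± 0.03 (SD, n = 5) in DKO and -0.00 ± 0.03 (SD, n = 5) in WT, a difference of -0.03 (two-sided exact permutation test, p = 0.198, where the smallest possible p was 0.00794). Scaling by TMM factors in place of the centring gave -0.06 (exact permutation p = 0.0159), and a WT threshold of 1 CPM gave -0.05 (exact permutation p = 0.0238). Among replicates 1 to 3 the difference was -0.03 and among replicates 4 and 5 it was -0.05. The values per library overlapped, from -0.08 to 0.00 in DKO and from -0.03 to 0.05 in WT.

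Single genes differed widely. Of 712 chromosome 6 genes tested, 298 were called at an adjusted p below 0.05, or 41.9%, and over all 13700 genes tested the share was 43.4%. They were 156 higher in DKO (21.9%, against 22.7% of all genes) and 142 lower (19.9%, against 20.7% of all genes). In 248 of the 712 genes the 5 DKO and 5 WT libraries did not overlap, which is 34.8%, beside 34.2% of all genes tested. Both shares were close to those of the whole genome. Of the 449 members, 83 rose and 109 fell. The WT threshold leaves out genes that are silent in WT and rose, and its part in this balance was not tested. The shares over all autosomal genes past that threshold are not given here, so nothing is read from the balance. The largest rises were in genes nearly silent in WT: the homeobox gene Vax2 (6.70 ± 0.55 SE on the log2 scale), the forkhead gene Foxp2 (6.44), Sspo (6.19), the ubiquitin ligase gene Pdzrn3 (6.06), Il23r (6.00) and Srgap3 (5.38). Vax2, for instance, had 0.07 to 0.28 CPM in WT and 5.46 to 27.1 CPM in DKO. For Sspo, Pdzrn3 and Srgap3, DKO replicate 2 lay far above the other DKO libraries. It had 112 CPM of Sspo against 3.21 to 15.1 CPM, 93.5 CPM of Pdzrn3 against 9.59 to 20.9 CPM, and 86.8 CPM of Srgap3 against 7.25 to 10.1 CPM. The largest falls were in Cd8b1 (-3.60), Cd163 (-3.44), Actg2 (-3.0), Mical3 (-2.51), Hoxa5 (-2.41) and Hoxa7 (-2.40). Cd8b1, the beta chain of the CD8 coreceptor, had 29.9 to 38.4 CPM in WT and 0.21 to 4.53 CPM in DKO, while Cd8a stayed at 0 to 2.67 CPM throughout the untransplanted groups.

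Some of these changes lasted through transplantation and others did not. Il23r, the receptor for interleukin 23, was at 2.39 to 11.7 CPM in DKO and at 3.74 to 166 CPM in all 11 transplantation libraries. Srgap3 was at 7.25 to 86.8 CPM in DKO and at 27.0 to 149 CPM in the transplantation libraries. Pdzrn3 was at 9.59 to 93.5 CPM in DKO, at 142 CPM in TX1 replicate 1 and at 0 to 0.427 CPM in all 10 others. Foxp2 had reads in TX1 replicate 1 (3.96 CPM) and in none of the others.

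The lists of chromosome 6 genes by role held both rises and falls, and their counts are read beside the 43.4% of all genes that were called. Among 15 tested cell cycle and genome maintenance genes 7 rose and 4 fell. Cdca3 (2.59 ± 0.31 SE), Foxm1 (2.41 ± 0.33), Ncapd2 (1.76 ± 0.21) and Mcm2 (0.84 ± 0.15), all tied to mitosis or replication, were among the rises, and Cdkn1b (-0.58 ± 0.10) and Ccnd2 (-0.59 ± 0.10) were among the falls. Among 6 glycolysis genes 5 rose and 1 fell, with Tpi1 at 2.32 ± 0.28 and Gapdh at 1.18 ± 0.12 above and Ldhb at -1.66 ± 0.35 below. Among 15 tested genes of the natural killer complex 7 rose and none fell; Klrd1 rose by 1.56 ± 0.28 and the others called were Klrb1c, Klrb1f, Klrb1a, Klrc1, Klri2 and Klra7.
Ccnd2 fell in DKO and was highest of all in TX2 replicates 1 to 4.

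Of 14 T cell surface and cytokine receptor genes 4 rose and 2 fell. Lag3 rose by 4.60 ± 0.53 and Cd9 by 0.78 ± 0.16, and Tnfrsf1a fell by 1.43 ± 0.28. Cd4 had a log2 change of -0.07 ± 0.12 and was not called. Of 12 growth regulators 4 rose and 1 fell: Bhlhe40 (4.53 ± 0.77), Etv6 and Mlf2 were among the higher ones and Foxp1, a factor of resting naive T cells, was lower (-1.44 ± 0.20). Of 12 genes in the chromatin list 2 rose and 4 fell, with Ezh2 up by 1.20 ± 0.15 beside the fall of Tet3. Among 8 GIMAP genes there was 1 rise (Gimap5, 0.79 ± 0.17) and there were 3 falls (Gimap3, Gimap8 and Gimap9). Of 15 RNA processing and translation genes 7 rose and 3 fell.

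TX1 and TX2 were each set against the same 5 DKO libraries, so these comparisons share their controls, and both hold libraries that the choice of the chromosome used. In TX1 against DKO, 144 of 731 chromosome 6 genes were called (19.7%, the same share as the 19.7% over all genes), 65 higher and 79 lower, beside 11.7% and 7.97% of all genes. This count was not stable. It was 1 with the DKO libraries labelled young left out and 13 with the replicate number as a block. It was 318 without TX1 replicate 1, 89 without DKO replicate 1, 81 and 78 without DKO replicates 4 and 5, and 84 without TX1 replicate 3. In TX2 against DKO, 368 of 731 were called (50.3%, beside 51.7% of all genes), 210 higher (28.7%, beside 25.6%) and 158 lower (21.6%, beside 26.1%). The pooled TX2 group mixes both sets of libraries. With TX2 replicates 1 to 4 alone 492 genes were called and with replicates 5 to 7 alone 493, beside 59.1% and 56.4% of all genes. In replicates 1 to 4, 302 of 726 genes were higher than in DKO (41.6%, beside 27.8% of all genes) and 190 lower (26.2%, beside 31.3%). In replicates 5 to 7, 220 of 815 were higher (27.0%, beside 28.2%) and 273 lower (33.5%, beside 28.2%). The choice of the chromosome used both sets, so these counts are descriptions and nothing is read from them.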

How the data were processed

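RNA from 21 libraries of sorted spleen T cells was analysed. The deposited gene tables hold counts, that is, whole numbers of reads per Ensembl gene without normalization, in the layout that STAR writes, with 1 unstranded and 2 stranded columns for 55487 identifiers. For 18 libraries a deposited clonotype table lists each beta chain sequence with its count of reads, and its software is not named in the labels. Per the submitters' processing notes, fastp 0.21.0, STAR 2.7.5a and DESeq2 were used, with the builds mm10 and GRCm38. Summary lines (unmapped, multimapping, ambiguous and unannotated reads, 16.8 to 23.4% of reads) stayed out of all totals. The alpha chain tables were not used. Multimapping reads are not assigned to genes here, so genes with near-identical copies, such as Trbc1 and Trbc2, Trbv segments and the GIMAP and Klr families, are uncertain.

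The unstranded column was turned into CPM over all genes. Coordinates and names came from GENCODE M21, which matched 55227 identifiers. A WT library was set against the mean of the other WT libraries. Libraries were divided by the labels into WT, DKO, TX1 and TX2, and TX2 was parted into replicates 1 to 4 and 5 to 7 as the choice of the chromosome was made. Members, lists and libraries compared were chosen with earlier results of these data known. Genes singled out in the text were the members of 8 lists by role, the 6 highest and 6 lowest differences, the 6 largest rises and 6 largest falls in DKO against WT, and 3 genes on each side of the threshold; some listed genes are not reported here by name.

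Each pair of groups was fitted by itself in edgeR 4.0.16 under R 4.3.3 (TMM factors, filterByExpr, robust quasi-likelihood test), with Benjamini-Hochberg adjustment over all genes tested and a threshold of 0.05. Errors of log2 changes are standard errors. The median shift was compared by a two-sided exact permutation test over libraries. The procedures were tested on simulated data. Alternatives were DESeq2 1.42.0, other scalings and filters, 0.1 and 1 CPM as pseudocount, the strand column, 1 fit of all groups, male libraries only, libraries labelled young left out, each library left out, and the replicate number as a block. Some alternatives were added after the data had been seen: the split of TX2, the 2 spans of replicate numbers, and the distal and proximal sides without receptor segments. Ranges and shares of clonotype reads cover counting error only, and reads are not independent molecules.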

Additional observations from a re-analysis of the deposited data

Results flagged for a closer look

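In 13 of 64 groups examined (the chromosome 6 median, the gap between its distal and proximal sides, and 14 genes, each in 4 groups) 1 library lay far from the rest of its group. The rule flags about 1 in 20 groups when values are independent and normally spread. Most of the 14 genes were chosen by their difference between transplantation libraries, and the groups share libraries. The count of flags is therefore not compared with chance. TX1 replicate 1 accounts for 5 of the 13. It had 1051 CPM of Cd4 where the other TX1 libraries had 0.13 to 28.0 CPM, 1099 CPM of Lag3 against 8.68 to 32.7 CPM, 627 CPM of Bhlhe40 against 3.82 to 17.4 CPM, 50.6 CPM of Gprin3 against 0.07 to 1.61 CPM, and 41.5 CPM of St8sia1, a sialyltransferase gene, against 1.84 to 7.48 CPM. DKO replicate 2 accounts for 4. It had 1256 CPM of Bhlhe40 against 132 to 158 CPM in the other DKO libraries, 993 CPM of Lag3 against 240 to 320 CPM, 213 CPM of Capg against 69.7 to 90.6 CPM, and 40.3 CPM of the lipid transfer gene Osbpl3 against 10.7 to 13.3 CPM.

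The remaining 4 are spread over other libraries. DKO replicate 3 had 6.47 CPM of the transporter gene Abcg2 against 7.71 to 8.20 CPM. WT replicate 5 had 168 CPM of St8sia1 against 122 to 129 CPM, and its distal side of chromosome 6 lay at -0.10 relative to the proximal side, against 0.01 to 0.04 in the other WT libraries. TX2 replicate 6 had 8.41 CPM of St8sia1 against 0 to 2.55 CPM.

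Against WT, the chromosome 6 median was higher in every one of TX2 replicates 1 to 4 and lower in every TX1 library, with a difference of set means of 0.50. This contrast was not tested, since the chromosome was chosen for it.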

How the results depend on the processing

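The gap between the chromosome 6 median of TX2 replicates 1 to 4 and that of the other transplantation libraries was 0.52 and ran from 0.48 to 0.54 when any library was left out. The mean over genes in place of the median gave 0.41, and all other settings stayed above 0.41 and at or below 0.54, including TX1 alone (0.50), TX2 replicates 5 to 7 alone (0.54) and TX1 replicate 4 with TX2 replicates 5 to 7 (0.52). The gap between library medians, distal minus proximal over all members, differed between the sets by 0.06 (0.04 to 0.08 with a library left out) and 0.0169 when the chromosome was split at its middle gene. For DKO against WT the shift of -0.03 ran from -0.04 to -0.01 with a library left out; TMM scaling gave -0.0629 (exact permutation p = 0.0159) and a threshold of 1 CPM gave -0.0477 (exact permutation p = 0.0238), the 2 settings that passed 0.05. The cause of these changes was not tested. The pairing of libraries by replicate number was not used in the comparisons, since correlations of same-numbered deviations ran from -0.16 to 0.35. With the replicate block the shift was -0.03 (exact sign-flip p = 0.25), and edgeR called 288, 13 and 339 chromosome 6 genes in DKO against WT, TX1 against DKO and TX2 against DKO, in place of 298, 144 and 368.

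Called chromosome 6 genes numbered 257 to 325 in DKO against WT and 328 to 367 in TX2 against DKO when a library was left out, and other settings stayed within 1.5 times (210 to 316, and 305 to 494). The count in TX1 against DKO was unstable: 78 to 318 with a library left out, 91 with male libraries only and 1 with the DKO libraries labelled young left out. Depth of 26918548 reads or more in genes leaves a member at the threshold of 5 CPM with over 100 reads in each WT library on average, while levels under 0.1 CPM rest on at most 3 reads.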
